A study of Mus musculus with 21 samples.

Results

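Transcript levels of 10 genes that drive or restrain the cell cycle were followed across 7 conditions of mouse embryonic stem cells (mESCs). The genes were Myc and Mycn of the MYC family, the D-type cyclin genes Ccnd1, Ccnd2 and Ccnd3, the E-type cyclin genes Ccne1 and Ccne2, the cyclin genes Ccna2 and Ccnb1, and Cdkn1b, which encodes the cyclin-dependent kinase (CDK) inhibitor p27. They were found by symbol in gene-count files that list 23412 symbols, and all 10 were among the 14963 genes that passed the filter on low counts and were tested.

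All cells were v6.5 male mESCs, transfected with 50 nM of siRNA and collected 48 h later for poly-A RNA sequencing, with 3 libraries for each condition. Wild-type (WT) mESCs received siGLO, the transfection control, or siPds5b against Pds5b. Pds5b-KO mESCs received siGLO, and Pds5a-KO mESCs received siGLO, siPds5b, siStag1 or siStag2. PDS5A and PDS5B are a pair of accessory proteins of cohesin, the ring complex that holds DNA loops and sister chromatids, and STAG1 and STAG2 are alternative subunits of the same ring. Each knockout was 1 CRISPR clone, so an effect of the clone cannot be told apart from an effect of the lost gene. The Pds5a-KO clone carried a small insertion with a deletion in 1 allele and a longer deletion in the other, and the Pds5b-KO clone carried the same 1-base insertion in both alleles. siGLO was the only control siRNA, so an effect of losing a target cannot be told apart from another effect of its siRNA. Nothing in the labels says that the 3 libraries of a condition came from separate experiments, so p-values measure the spread between these libraries.

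Total counts per library ranged from 17311090 to 23989198. Mean Pds5b counts were 276 in Pds5b-KO siGLO, 776 in WT siPds5b and 903 in Pds5a-KO siPds5b, against 2219 in WT siGLO. Stag1 was at 575 after siStag1 and Stag2 at 875 after siStag2, against 2428 and 3256 in Pds5a-KO siGLO. Pds5a stayed at 4271 in Pds5a-KO siGLO against 5059 in WT siGLO, and since a count over the whole gene can still include transcripts that carry the edit, it does not check that label. The 10 pluripotent stem cell markers were detected in every library, and their summed normalized count moved with the conditions: it ranged from 147573 to 157334 in WT siGLO, from 111290 to 129669 over the libraries of both knockouts with siGLO, and from 86630 to 107936 over Pds5a-KO siPds5b and Pds5a-KO siStag2. The 6 trophoblast markers summed to between 162 and 188 in WT siGLO, to between 787 and 2183 in the 4 Pds5a-KO conditions, and to between 400.1 and 494 in Pds5b-KO siGLO. Pds5b-KO siGLO also had a higher sum over the 8 primitive endoderm markers (12057 to 21820, against 5958 to 8677 in WT siGLO), without overlap. In edgeR, 1 of these 8 was higher at an adjusted p under 0.01. The 7 fibroblast markers summed to between 1068 and 1493 in WT siGLO. Their sum was lower without overlap in Pds5b-KO siGLO (305 to 432), Pds5a-KO siStag1 (296 to 921) and Pds5a-KO siStag2 (581 to 864). It also differed between the WT conditions, being higher without overlap in WT siPds5b (1736 to 2166). Of the 5 fibroblast markers tested in edgeR against WT siGLO, 2, 2 and 1 were lower in these 3 knockout conditions and none was higher. There 18.2%, 20% and 30.1% of all tested genes were called. The 6 mesoderm markers summed to between 480 and 1219 in WT siGLO, to between 367 and 1153 in WT siPds5b and to at most 420 in every knockout condition. In edgeR, 1 of the 5 mesoderm markers tested was lower and none higher in each knockout condition against WT siGLO. The share of all tested genes called there was 17.8% to 32%. The 6 neuroectoderm markers summed to 2428 to 3221 in WT siGLO, 1663 to 2020 in Pds5a-KO siGLO and 1730 to 1889 in Pds5a-KO siPds5b. The other knockout conditions, from 2260 to 3005, overlapped with WT siGLO. Single neuroectoderm markers differed in direction in edgeR against WT siGLO. In Pds5a-KO siGLO 2 were lower and none higher (median log2 fold change -0.17, 17.8% of all tested genes called). In Pds5a-KO siPds5b 2 were lower and 1 higher (median 0.52, 32% called), and in Pds5b-KO siGLO 2 were higher and none lower (18.2% called). In bulk RNA, fewer cells that express a gene and less RNA per cell cannot be told apart, and the part of these marker differences in the results on the 10 genes was not tested.

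MYC proteins pair with MAX on DNA and raise the transcription of growth and ribosome genes, and in mESCs Mycn and Myc help to keep cells dividing and undifferentiated. D-type cyclins pair with CDK4 and CDK6 and link growth signals to the phosphorylation of the RB proteins, which frees E2F factors, and E-type cyclins with CDK2 then open S phase. Cyclin A acts through S phase and cyclin B with CDK1 drives mitosis, while p27 binds and holds back cyclin-CDK complexes. mESCs are known for a short G1 phase, high cyclin E and modest D-type cyclin levels.

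The 10 genes were compared in 11 contrasts between conditions and in 1 interaction, which asks whether siPds5b acted differently in Pds5a-KO than in WT mESCs. A gene was called where its adjusted p was under 0.01 in edgeR's quasi-likelihood test. Of the 120 gene and comparison pairs, 25 were called, 4 higher and 21 lower, and Ccnd3 accounted for 10 of them. Over all tested genes, the share called ran from 0.00668% in WT siPds5b to 32% in Pds5a-KO siPds5b, both against WT siGLO. Against WT siGLO, 9.63% of all tested genes were higher and 8.12% lower in Pds5a-KO siGLO, and 17.4% and 14.6% in Pds5a-KO siPds5b. Lower calls were the larger share in others, such as siStag1 (0.0134% higher, 0.0802% lower) and siStag2 (0.969%, 1.27%) against Pds5a-KO siGLO. Myc, Ccna2, Ccnb1 and Cdkn1b were called in no comparison by this test or by DESeq2. At an unadjusted p under 0.05, none of these 4 genes passed except Ccnb1 in Pds5a-KO siGLO against Pds5b-KO siGLO.

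Between genotypes under siGLO, 3 of the 10 genes were called in Pds5a-KO against WT, all lower (Ccnd2, Ccnd3 and Ccne2), where 17.8% of all tested genes were called. In Pds5b-KO against WT, Mycn was higher and Ccnd1 and Ccnd3 were lower, with 18.2% of all tested genes called. In the direct comparison of the knockouts, Ccnd1 and Ccnd3 were higher and Ccnd2 and Ccne2 lower in Pds5a-KO, with 19.2% of all tested genes called. A count of 3 or 4 of 10 is about 1 or 2 genes above these backgrounds, and the genes differed between the knockouts: Ccnd3 was lower in both, Ccnd2 and Ccne2 were called in Pds5a-KO, and Ccnd1 in Pds5b-KO.

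Among the siRNA comparisons, WT siPds5b against WT siGLO gave 0 calls among the 10 genes with edgeR, 1 at an unadjusted p under 0.05 and 1 with DESeq2 (Ccnd3), where 0.00668% of all tested genes were called. Pds5a-KO siPds5b, the dual depletion, had Ccnd3 and Ccne2 lower than WT siGLO, with 32% of all tested genes called, a larger share than among the 10 genes. Against Pds5a-KO siGLO it had Mycn and Ccnd3 lower, with 7.59% of all tested genes called. siStag1 gave lower Ccnd3 against Pds5a-KO siGLO, with 0.0936% of all tested genes called, and siStag2 gave lower Ccnd3 and Ccne1, with 2.24%. siStag2 against siStag1 gave 0 calls among the 10 genes with edgeR, 4 at an unadjusted p under 0.05 and 3 with DESeq2, with 0.394% of all tested genes called.

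Against WT siGLO, Pds5a-KO siStag1 had Mycn higher and Ccnd2, Ccnd3 and Ccne2 lower, with 20% of all tested genes called, and Pds5a-KO siStag2 had Ccnd2, Ccnd3 and Ccne2 lower, with 30.1%. In the interaction, Ccnd3 was called and 1.48% of all tested genes were called. WT siGLO enters 7 of the 12 comparisons and Pds5a-KO siGLO enters 6, the interaction included, so these results are not independent of each other.

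**Figure D1:**
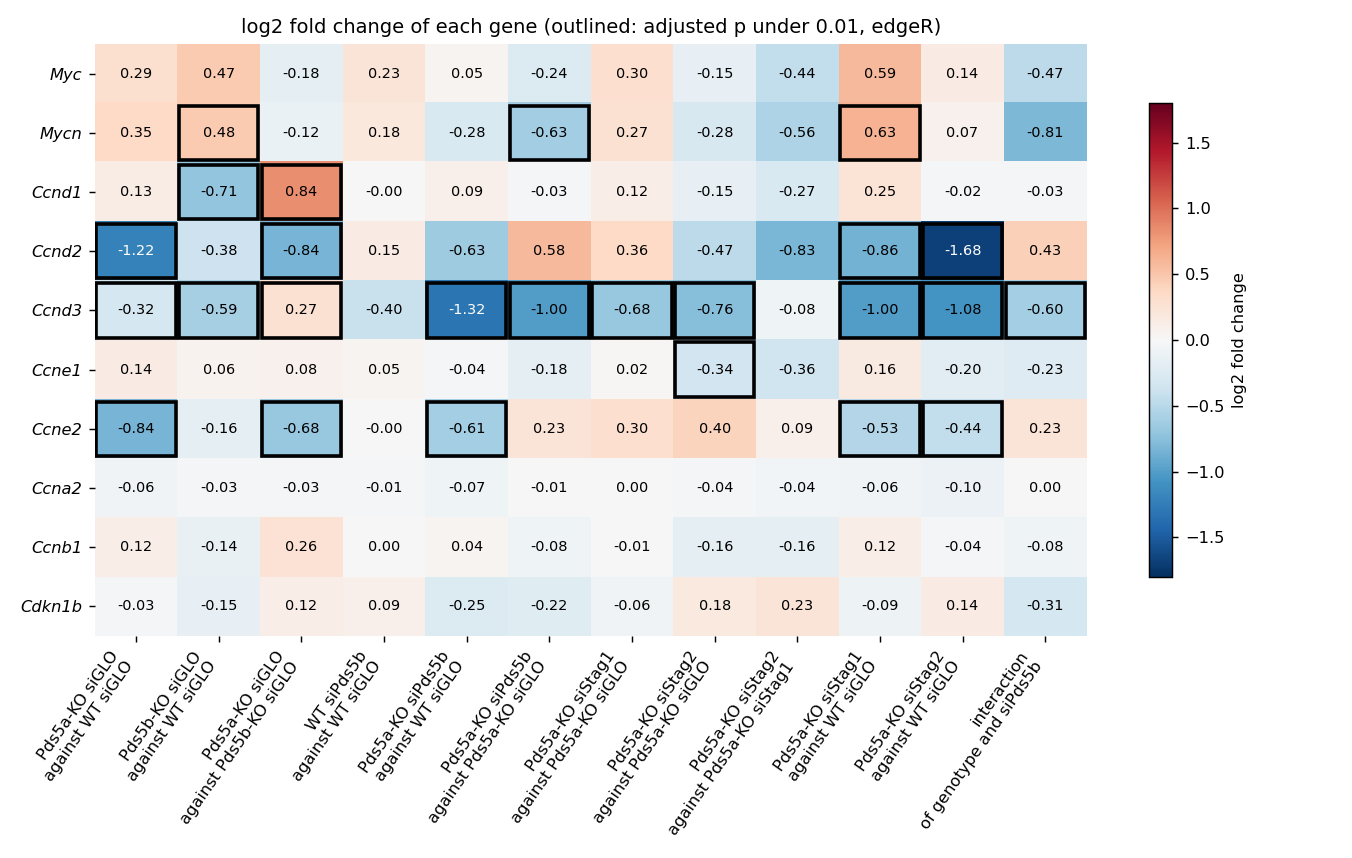
log2 fold change (colour and printed value) of the 10 genes, in rows, in the 12 comparisons, in columns, with outlines on the calls at an adjusted p under 0.01 in edgeR. The Ccnd3 row holds 10 of the 25 outlines, and the rows of Myc, Ccna2, Ccnb1 and Cdkn1b hold none.

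Ccnd3, the gene of cyclin D3, was highest in WT siGLO, where the 3 libraries held 4946, 5112 and 4643 normalized counts. WT siPds5b held 4031, 3682 and 3446 counts, Pds5a-KO siGLO 3887, 3995 and 3896, and Pds5b-KO siGLO 3471, 3040 and 3251. Every library of these 3 conditions was below every WT siGLO library, while WT siPds5b overlapped with both knockouts. The lowest levels were found in Pds5a-KO mESCs with a targeting siRNA: 1897, 1893 and 2090.0 after siPds5b, 2390.3, 2452 and 2499 after siStag1, and 2149, 2379 and 2416 after siStag2. All 9 of these libraries were below all 12 others, siStag1 and siStag2 overlapped, and siPds5b was below both.

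Relative to WT siGLO, the log2 fold change of Ccnd3 was -0.32 (SE 0.07, adjusted p = 0.00122) in Pds5a-KO siGLO and -0.59 (SE 0.07, adjusted p = 9.74e-07) in Pds5b-KO siGLO. It was -1.32 (SE 0.07, adjusted p = 8.98e-13) in the dual depletion, which left 40.0% of the WT siGLO level. siPds5b in WT mESCs gave -0.40 (SE 0.07), or 75.9% of the WT siGLO level. That difference missed the threshold in edgeR (adjusted p = 0.026) and passed it in DESeq2 (adjusted p = 0.000164). It ranked 4 among all tested genes by p, in a comparison in which edgeR called 1 gene. Pds5a-KO siStag1 and Pds5a-KO siStag2 held 49.9% (adjusted p = 2.2e-10) and 47.2% (adjusted p = 4.54e-11) of the WT siGLO level.

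Between the knockouts, Ccnd3 was 0.27 higher on the log2 scale in Pds5a-KO siGLO than in Pds5b-KO siGLO (SE 0.07, adjusted p = 0.00468). That call was lost without any 1 of 5 of the 6 libraries (adjusted p from 0.0157 to 0.0484, all but Pds5b-KO siGLO replicate 1).

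Within Pds5a-KO mESCs, Ccnd3 was lower after each of the 3 targeting siRNAs than after siGLO. Its log2 fold change was -1.002 (SE 0.07, adjusted p = 1.38e-09) after siPds5b, -0.68 (SE 0.07, adjusted p = 6.47e-06) after siStag1 and -0.76 (SE 0.07, adjusted p = 3.74e-07) after siStag2. Ccnd3 ranked 4, 2 and 4 by p among all tested genes in these comparisons, with 1136, 14 and 335 genes called. siStag2 and siStag1 did not differ by the test, with a log2 difference of -0.08 and an interval of 2 SE from -0.22 to 0.06. The interaction for siPds5b was -0.60 (SE 0.10, adjusted p = 0.000739), so the log2 decrease after siPds5b was larger in Pds5a-KO than in WT mESCs.

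**Figure D2:**
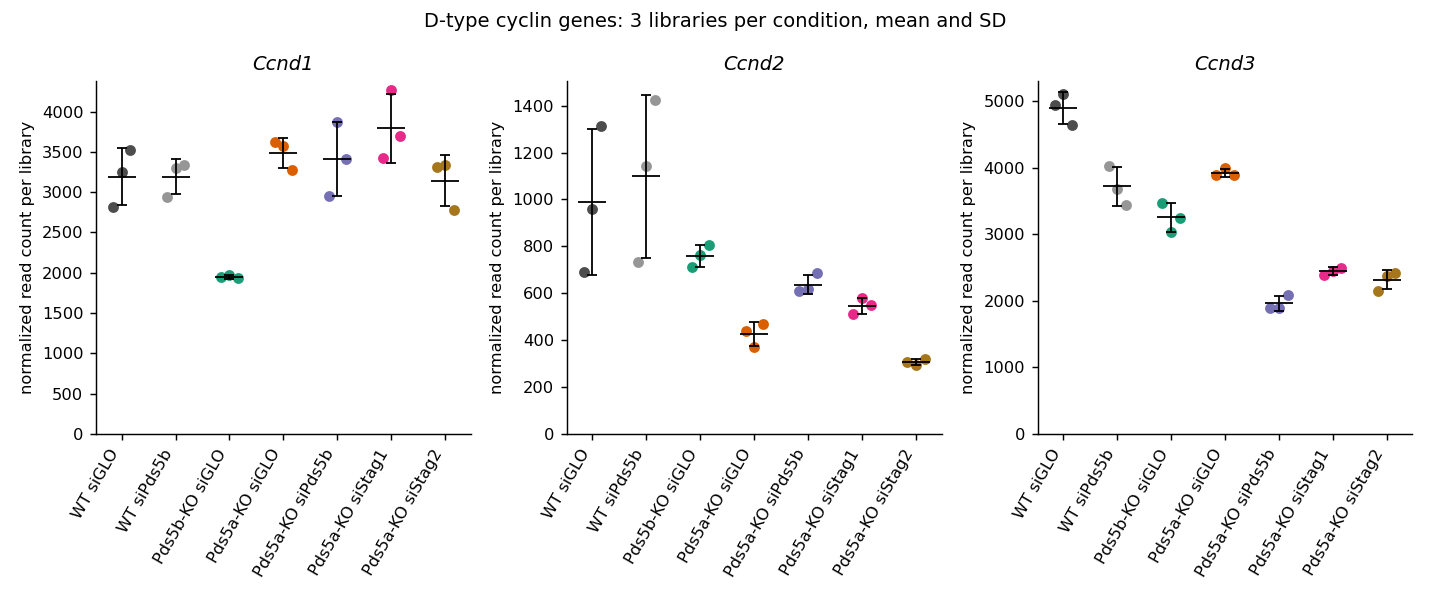
Normalized read counts (y axis, from 0) of Ccnd1, Ccnd2 and Ccnd3 in each of the 3 libraries of the 7 conditions (dots), with the mean and SD (black). Ccnd3 was between 1893 and 2499 in the 9 libraries of Pds5a-KO mESCs with a targeting siRNA and between 3040 and 5112 in the others. Ccnd1 was lowest in Pds5b-KO siGLO, and Ccnd2 was lowest in Pds5a-KO siStag2.

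Ccnd3 lies on chromosome 17 from 47505051 to 47599691 on the plus strand (GRCm38, the assembly also named mm10), and its RefSeq transcripts start at separate places. Both promoter windows are shown because this gene was called most often, and because counts per gene do not tell which start was used. Each window runs from 250 bases before to 50 bases after a RefSeq start (GRCm38.p6, plus strand, chr17:47504801-47505100 and chr17:47593217-47593516). Capitals mark the GC box (GGGCGG on either strand) and the CCAAT box (CCAAT on either strand).
Ccnd3 upstream start: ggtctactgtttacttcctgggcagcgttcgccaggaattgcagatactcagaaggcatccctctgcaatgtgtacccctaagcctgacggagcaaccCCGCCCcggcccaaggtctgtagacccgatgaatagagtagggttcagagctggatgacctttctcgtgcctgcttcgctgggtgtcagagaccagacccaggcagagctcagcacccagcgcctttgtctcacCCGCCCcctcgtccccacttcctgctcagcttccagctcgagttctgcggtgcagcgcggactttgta
Ccnd3 downstream start: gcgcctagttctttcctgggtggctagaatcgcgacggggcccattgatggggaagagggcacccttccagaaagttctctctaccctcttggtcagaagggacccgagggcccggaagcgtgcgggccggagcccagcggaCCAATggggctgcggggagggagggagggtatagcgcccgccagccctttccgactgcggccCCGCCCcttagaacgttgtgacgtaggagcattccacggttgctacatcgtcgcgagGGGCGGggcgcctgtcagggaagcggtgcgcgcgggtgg
Each window holds 2 GC boxes, a motif found in 35.7% of 32851 promoter windows of this length, and the downstream window also holds 1 CCAAT box, found in 37.4%. Neither holds the MYC-binding E-box (CACGTG, 7.15% of windows) or an E2F site (TTTCGCGC, 0.323%, or TTTGGCGC, 0.514%).

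Exons of Ccnd3 overlap Bysl on the opposite strand over 359 bases, 15.9% of the exon sequence of Ccnd3, and the use of strand in counting is not given in the sources used here. Bysl had a log2 fold change of 0.09 (SE 0.09, adjusted p = 0.417) in the dual depletion against WT siGLO and -0.08 (SE 0.09, adjusted p = 0.622) against Pds5a-KO siGLO, where Ccnd3 gave -1.32 and -1.002. Ccnd3 and Ccnb1 also have annotated pseudogenes, and how reads that match both copies were counted is not given in the sources used here.

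Ccnd2, the gene of cyclin D2, had its highest and most variable levels in WT mESCs, with 692, 959 and 1314 normalized counts in WT siGLO and 732, 1144 and 1423 in WT siPds5b. Pds5b-KO siGLO held 711, 763 and 806 counts, within the range of WT siGLO. Pds5a-KO siGLO held 439, 370.4 and 467 counts, below every library of the other genotypes. In Pds5a-KO siGLO it was lower by the test, with log2 fold changes of -1.22 (SE 0.21, adjusted p = 0.000276) against WT siGLO and -0.84 (SE 0.21, adjusted p = 0.00538) against Pds5b-KO siGLO. The second call was lost without any 1 of 5 of the 6 libraries (adjusted p from 0.0115 to 0.0285, all but Pds5a-KO siGLO replicate 3).

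Within Pds5a-KO mESCs the siRNAs stood on different sides of the siGLO level of Ccnd2. After siPds5b the counts were 609, 618 and 685, and after siStag1 they were 511, 579 and 549, in both cases above all siGLO libraries. After siStag2 they were 308, 294 and 321, below all siGLO libraries. None of these differences was called, with log2 fold changes of 0.58 (SE 0.21, adjusted p = 0.0683), 0.36 (SE 0.21, adjusted p = 0.579) and -0.47 (SE 0.22, adjusted p = 0.189). The difference after siPds5b was called in the edgeR model of only those groups (log2 fold change 0.59, adjusted p = 0.00952). siStag2 against siStag1 gave -0.83 (SE 0.22, adjusted p = 0.0523 in edgeR and 0.00201 in DESeq2).

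Against WT siGLO, Ccnd2 fell by 1.68 on the log2 scale in Pds5a-KO siStag2 (SE 0.21, adjusted p = 7.03e-06), the largest of its changes, and by 0.86 in Pds5a-KO siStag1 (SE 0.20, adjusted p = 0.00375). The siStag1 call was lost without WT siGLO replicate 3, which holds the highest Ccnd2 count of that group (log2 fold change -0.59, adjusted p = 0.0218), and without any of the 3 siStag1 libraries (adjusted p from 0.0106 to 0.0169). In the dual depletion the log2 fold change was -0.63 (SE 0.20, adjusted p = 0.0166), below the WT siGLO libraries without overlap. It was called without WT siGLO replicate 1, the lowest of its group (log2 fold change -0.84, adjusted p = 0.00110), and by DESeq2 (adjusted p = 0.00322).

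Ccnd1, the gene of cyclin D1, differed in a single genotype. Pds5b-KO siGLO held 1941, 1974 and 1929.7 normalized counts, while WT siGLO held 2812, 3249 and 3524 and Pds5a-KO siGLO held 3622, 3571 and 3273. No Pds5b-KO library reached the range of any other condition, which spanned 2781 to 4264 over the other 18 libraries. Ccnd1 was lower in Pds5b-KO, with a log2 fold change of -0.71 (SE 0.10, adjusted p = 1.12e-05) against WT siGLO, and Pds5a-KO stood 0.84 above Pds5b-KO (SE 0.10, adjusted p = 1.02e-06). siPds5b in WT mESCs, which left a mean of 776 Pds5b counts, gave a log2 fold change with an interval of 2 SE from -0.20 to 0.20.

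Ccnd1 shares 818 exon bases, 21.9% of its exon sequence, with Oraov1 on the opposite strand. In Pds5b-KO siGLO against WT siGLO, Oraov1 was at -0.67 on the log2 scale (SE 0.16, adjusted p = 0.00327), in the same direction as Ccnd1, and without strand the reads of the shared bases cannot be assigned to either gene.

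Per kb of exon, Ccnd3 was the most abundant D-type cyclin transcript in WT siGLO, at a mean normalized count of 2170.2 per kb ± 105 (SD, n = 3). Ccnd1 followed at 854 ± 95.9 and Ccnd2 at 156 ± 49.3, so that Ccnd3 made up 68.3% ± 3.86 (SD, n = 3) of the summed level. In the dual depletion the sum was 1881 per kb ± 135, against 3181 ± 118 in WT siGLO, and Ccnd3 made up 46.3% ± 3.27 and Ccnd1 48.4% ± 3.63 of it. Pds5b-KO siGLO had a sum of 2082 per kb ± 87.0 with Ccnd3 at 69.2% ± 1.69, near its share in WT siGLO. The ratio of Ccnd1 to Ccnd3 per kb was between 0.343 and 0.458 in the WT siGLO libraries and between 0.940 and 1.23 in the dual depletion, without overlap. This ratio was also raised in Pds5a-KO siStag1 (0.865 to 1.05), Pds5a-KO siStag2 (0.695 to 0.931) and Pds5a-KO siGLO (0.507 to 0.563). It was 0.338 to 0.392 in Pds5b-KO siGLO and 0.441 to 0.584 in WT siPds5b. The sum in Pds5a-KO siStag2 was 1914 per kb ± 68.9, near that of the dual depletion.

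**Figure D3:**
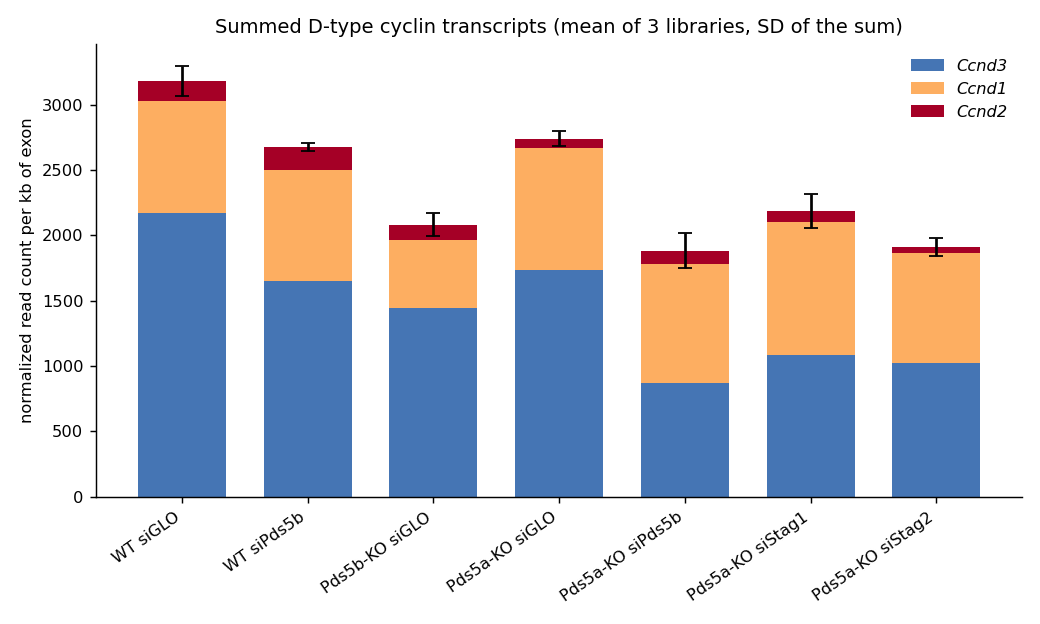
Mean normalized read count per kb of exon (y axis, from 0) of Ccnd3, Ccnd1 and Ccnd2, stacked, in the 7 conditions, with the SD of the sum over 3 libraries. The sum was 3181 per kb in WT siGLO and 1881 in Pds5a-KO siPds5b, and the Ccnd3 share was 68.3% and 46.3%.

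Mycn, the gene of N-MYC, was the more abundant MYC family transcript in every library, at a mean of 1280.2 normalized counts per kb of exon in WT siGLO against 275 for Myc. WT siGLO held 3252, 3411 and 3607 Mycn counts and WT siPds5b 3933, 3735 and 3991. Pds5b-KO siGLO held 4645, 4796 and 4857, all above both WT conditions, and Pds5a-KO siGLO spread from 3488 to 5395 and overlapped with WT siGLO. The log2 fold change against WT siGLO was 0.48 in Pds5b-KO (SE 0.13, adjusted p = 0.00914) and 0.35 in Pds5a-KO (SE 0.13, adjusted p = 0.0488). The Pds5b-KO call was lost without any 1 of its 6 libraries (adjusted p from 0.018 to 0.0369), and the Pds5a-KO difference was called without Pds5a-KO siGLO replicate 3 (log2 fold change 0.49, adjusted p = 0.007).

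In Pds5a-KO mESCs, Mycn stood at different levels after the 3 siRNAs. It held 3277, 2783 and 2414 counts after siPds5b, 5594, 5476 and 4776 after siStag1, and 4193, 3552 and 3039 after siStag2, so the siPds5b and siStag1 libraries did not overlap. Against Pds5a-KO siGLO the log2 fold change after siPds5b was -0.63 (SE 0.13, adjusted p = 0.00247). This call was lost without Pds5a-KO siGLO replicate 1 (adjusted p = 0.0164), without siPds5b replicate 2 (0.0151) and without siPds5b replicate 3 (0.020). siStag1 gave 0.27 (SE 0.13, adjusted p = 0.468) and siStag2 gave -0.28 (SE 0.13, adjusted p = 0.182).

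Against WT siGLO, Mycn was higher in Pds5a-KO siStag1, by a log2 fold change of 0.63 (SE 0.13, adjusted p = 0.00107), and it was at -0.28 in the dual depletion (SE 0.13, adjusted p = 0.0934). siStag2 against siStag1 gave -0.56 (SE 0.13, adjusted p = 0.0295 in edgeR and 0.00233 in DESeq2). The interaction for siPds5b was -0.81 (SE 0.19, adjusted p = 0.0153 in edgeR and 0.0011 in DESeq2), with log2 fold changes after siPds5b of 0.18 in WT and -0.63 in Pds5a-KO mESCs. In edgeR it was called with the replicate number as a block (adjusted p = 0.00242), without Pds5a-KO siGLO replicate 3 (0.0026) and without Pds5a-KO siPds5b replicate 1 (0.00702).

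Mycn lies on chromosome 12 from 12936093 to 12941914 on the minus strand, and its promoter window (RefSeq, GRCm38.p6, minus strand, chr12:12941787-12942086) is shown because it was the only one of the 6 windows found, for 5 of the 10 genes, with an E2F site. Capitals mark the E2F sites and the GC boxes (GGGCGG on either strand).
Mycn: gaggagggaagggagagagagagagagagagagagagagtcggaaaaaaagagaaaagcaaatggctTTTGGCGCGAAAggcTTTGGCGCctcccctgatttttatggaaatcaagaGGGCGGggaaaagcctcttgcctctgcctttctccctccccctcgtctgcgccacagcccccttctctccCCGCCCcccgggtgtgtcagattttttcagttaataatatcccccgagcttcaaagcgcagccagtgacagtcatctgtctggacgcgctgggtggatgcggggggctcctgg
The window holds TTTGGCGC at positions -183 and -168 from the start, and TTTCGCGC on the other strand overlaps the first of these. Among the promoter windows searched, 0.514% hold TTTGGCGC and 0.323% hold TTTCGCGC on either strand. The windows of Ccne1, Ccnb1 and Cdkn1b were also searched and held GC boxes, with CCAAT boxes in Ccnb1 and Cdkn1b.

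Myc had the largest SE of the 10 genes, from 0.30 to 0.31 on the log2 scale in the contrasts between conditions. It held 608, 600.4 and 722 normalized counts in WT siGLO and 1066, 730.4 and 569 in Pds5a-KO siGLO. Its highest and lowest libraries, at 1316 in Pds5a-KO siStag1 and 512 in Pds5a-KO siPds5b, both came from Pds5a-KO mESCs. In Pds5b-KO siGLO and in all 4 Pds5a-KO conditions the library numbered 1 held the most Myc counts and the library numbered 3 the fewest. In WT siGLO and WT siPds5b the library numbered 3 held the most and the library numbered 2 the fewest. The spread of Myc thus went with the replicate number in the knockout conditions, in an order that the WT conditions did not share. Its log2 fold changes ranged from -0.47 in the interaction to 0.59 in Pds5a-KO siStag1 against WT siGLO (SE 0.31, adjusted p = 0.165). For Pds5a-KO siGLO against WT siGLO the interval of 2 SE ran from -0.32 to 0.90, too wide to place Myc on either side of its WT level. Pds5b-KO siGLO held 1103, 843 and 728 Myc counts, above all WT siGLO libraries. Its log2 fold change against WT siGLO was 0.47 and was not called (SE 0.31, adjusted p = 0.263 in edgeR).

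Ccne2, the gene of cyclin E2, was lower in Pds5a-KO mESCs. WT siGLO held 232, 242 and 273 normalized counts, WT siPds5b 274, 214 and 258, and Pds5b-KO siGLO 234, 208 and 227, and these 3 conditions overlapped. Pds5a-KO siGLO held 145, 129 and 145 counts, and the 12 libraries of the 4 Pds5a-KO conditions, from 129 to 190.3, were below all 9 others. Ccne2 had log2 fold changes in Pds5a-KO siGLO of -0.84 against WT siGLO (SE 0.13, adjusted p = 2.31e-05) and -0.68 against Pds5b-KO siGLO (SE 0.13, adjusted p = 0.00027).

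Against WT siGLO, Ccne2 was also lower in the dual depletion (log2 fold change -0.61, SE 0.12, adjusted p = 0.000323), in Pds5a-KO siStag1 (-0.53, SE 0.12, adjusted p = 0.00189) and in Pds5a-KO siStag2 (-0.44, SE 0.12, adjusted p = 0.00587). The siStag1 call was lost without siStag1 replicate 2 (adjusted p = 0.0137) or WT siGLO replicate 3 (0.0162). The siStag2 call was lost without any siStag2 library or WT siGLO replicates 2 or 3 (adjusted p from 0.0105 to 0.0377). Within Pds5a-KO mESCs no siRNA gave a called difference from siGLO, although all libraries after siPds5b, siStag1 and siStag2 were above all siGLO libraries, with log2 fold changes of 0.23, 0.30 and 0.40 (adjusted p = 0.241, 0.374 and 0.0556). Ccne2 overlaps Ints8 on the opposite strand over 336 bases, 10.5% of its exon sequence, and Ints8 had a log2 fold change of -0.05 in Pds5a-KO siGLO against WT siGLO (SE 0.07, adjusted p = 0.657).

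Ccne1, the gene of cyclin E1, was the more abundant E-type transcript, at 2441 normalized counts per kb in WT siGLO against 77.8 for Ccne2. The ratio of Ccne1 to Ccne2 per kb was between 27.4 and 35.8 in WT siGLO and between 53.2 and 68.4 in Pds5a-KO siGLO, without overlap. Ccne1 itself held 5197, 4782 and 4669.6 counts in WT siGLO and 5830.3, 5521 and 4808 in Pds5a-KO siGLO, which overlapped. After siStag2 it held 4466, 4396 and 3921 counts, with a log2 fold change against Pds5a-KO siGLO of -0.34 (SE 0.08, adjusted p = 0.00926). That call was lost without any 1 of 5 of the 6 libraries (adjusted p from 0.0177 to 0.0703, all but Pds5a-KO siGLO replicate 3). siStag2 against siStag1 gave -0.36 without overlap (SE 0.08, adjusted p = 0.0161 in edgeR and 0.00108 in DESeq2).

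**Figure D4:**
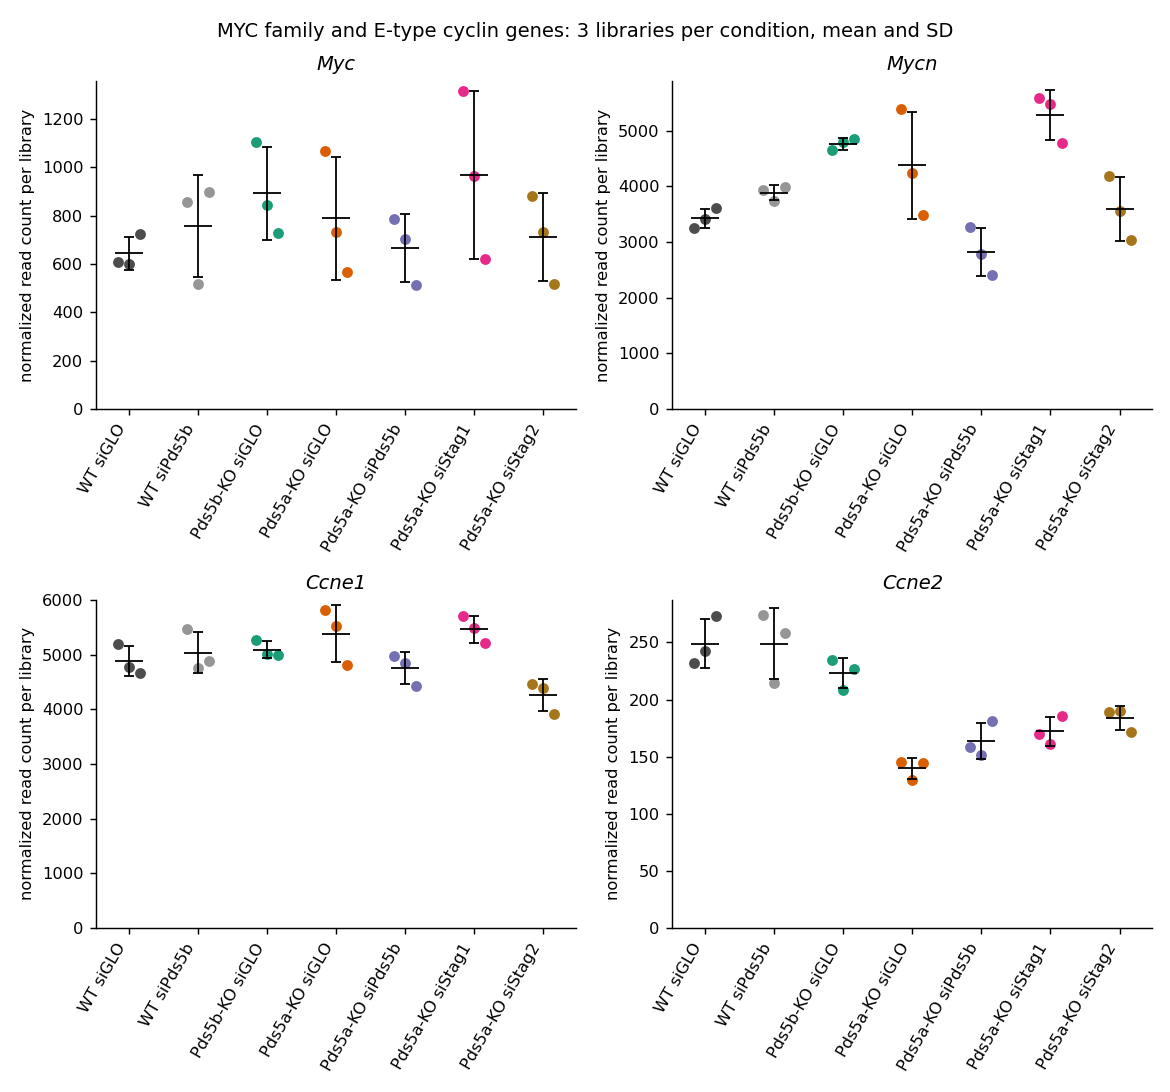
Normalized read counts (y axis, from 0) of Myc, Mycn, Ccne1 and Ccne2 in each of the 3 libraries of the 7 conditions (dots), with the mean and SD (black). The Ccne2 libraries of Pds5a-KO mESCs were between 129 and 190.3 and all others between 208 and 274, and the Myc libraries of most conditions overlapped.

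Ccna2, the gene of cyclin A2, had the narrowest range of the 10 genes. Its libraries held between 4822 and 5744 normalized counts over all 7 conditions, with 5734, 5519 and 5463 in WT siGLO. The log2 fold change was -0.07 in the dual depletion against WT siGLO, with an interval of 2 SE from -0.20 to 0.06, and its largest log2 fold change in size was -0.10, in Pds5a-KO siStag2 against WT siGLO. It overlaps Exosc9 on the opposite strand over 378 bases, 12.7% of its exon sequence. Exosc9 had a log2 fold change of -0.34 in the dual depletion against WT siGLO (SE 0.09, adjusted p = 0.00235).

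Ccnb1, the gene of cyclin B1, was the most abundant of the 10 transcripts per kb of exon, at a mean normalized count of 5163 per kb in WT siGLO, and its libraries held from 11242 to 15269 counts. Its mean was lowest in Pds5b-KO siGLO, with libraries at 11457, 11360 and 12213 counts, below the 15078, 13876 and 12968 of Pds5a-KO siGLO. Between the knockouts the log2 difference was 0.26 (SE 0.08, adjusted p = 0.0145, and 0.00963 when scaled by library size only), and neither knockout differed from WT siGLO by the test, with log2 fold changes of 0.12 and -0.14 (adjusted p = 0.272 and 0.186).

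Cdkn1b, the p27 gene, held 939, 1045 and 888 normalized counts in WT siGLO, and 712 to 1220.2 over all libraries. The dual depletion held 806, 712 and 896 counts and overlapped with WT siGLO in 1 library, with a log2 fold change of -0.25 (SE 0.12, adjusted p = 0.0984). No comparison called it, and its largest difference, in the interaction, was -0.31 with an interval of 2 SE from -0.65 to 0.03.

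**Figure D5:**
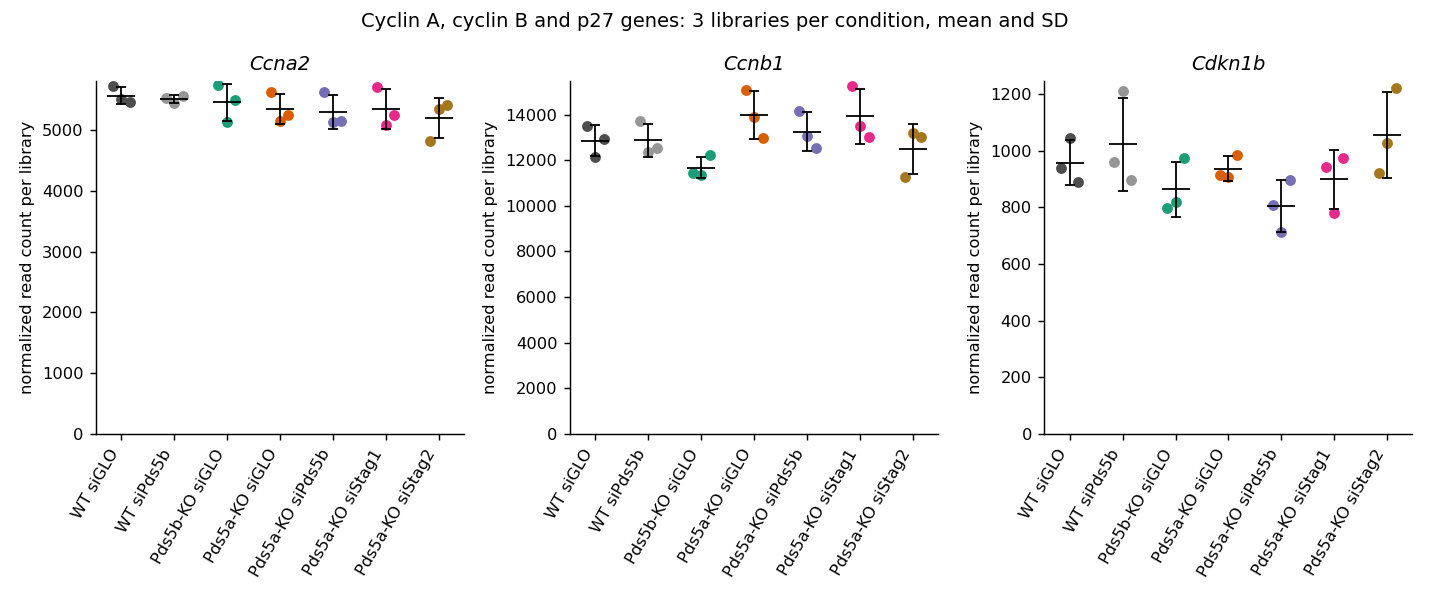
Normalized read counts (y axis, from 0) of Ccna2, Ccnb1 and Cdkn1b in each of the 3 libraries of the 7 conditions (dots), with the mean and SD (black). Ccna2 stayed between 4822 and 5744, Ccnb1 between 11242 and 15269, and Cdkn1b between 712 and 1220.2.

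The partners of these genes were described from lists of the same pathway, and their counts were read beside the shares of all tested genes called, which were 17.8% in Pds5a-KO siGLO, 18.2% in Pds5b-KO siGLO and 32% in the dual depletion, each against WT siGLO. Among 16 CDKs and their regulators, 3 were called in Pds5a-KO siGLO, near that background. Cdk6 and Cdk4, the kinases of the D-type cyclins, were lower than in WT siGLO, with log2 fold changes of -0.96 (SE 0.11) and -0.38 (SE 0.08), and Wee1, an inhibitory kinase of CDK1, was higher (0.30, SE 0.07). In Pds5b-KO siGLO 4 of the 16 were lower and none higher, about 1 gene above the background, with Cdk2 at -0.42, Cdk1 at -0.35 and Cdk4 at -0.33. In the dual depletion against WT siGLO 5 of the 16 were lower and none higher, a share of calls near the 32% of all tested genes, with Cdk6 at -1.18 (SE 0.11), Skp2, which targets p27 for degradation, at -0.88 (SE 0.08) and Cdk4 at -0.49 (SE 0.08). The median log2 fold change of the 16 was -0.08 in that comparison, beside -0.00 over all tested genes.

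Of 6 other CDK inhibitors tested, 3 were higher and none lower in Pds5a-KO siGLO than in WT siGLO, where 9.63% of all tested genes were higher: Cdkn1c, the p57 gene, by a log2 fold change of 2.04 (SE 0.16), Cdkn2b by 2.03 (SE 0.40) and Cdkn2a by 0.95 (SE 0.22). In the dual depletion these values were 2.69 (SE 0.16), 2.20 (SE 0.40) and 1.16 (SE 0.22), with 17.4% of all tested genes higher. In Pds5b-KO siGLO, Cdkn1c had a log2 fold change of -0.93 (SE 0.18) and was the only one of the 6 called.

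Of the 13 RB and E2F family genes, 4 were lower and 1 higher in Pds5a-KO siGLO, and 5 lower and 2 higher in the dual depletion, against WT siGLO. The lower genes were 30.8% and 38.5% of the list, where 8.12% and 14.6% of all tested genes were lower. E2f2, Rbl1 and Tfdp1, the gene of the E2F partner DP1, were lower in Pds5a-KO siGLO (log2 fold changes of -0.90, -0.54 and -0.43) and in the dual depletion (-1.58, -0.75 and -0.73). E2f6 was higher in both (0.37 and 0.37) and Rb1, the gene of RB itself, was higher in the dual depletion (0.42). In Pds5b-KO siGLO 2 were higher, E2f7 (0.46) and E2f4 (0.36), and E2f2 was lower (-0.58), with a median log2 fold change of 0.19 over the 13 and 18.2% of all tested genes called. Among 13 tested cyclins outside the group, 1 was called in Pds5a-KO siGLO and 5 in the dual depletion, 4 lower and 1 higher, beside 17.8% and 32% of all tested genes called. Ccnk, whose product serves the transcription kinases CDK12 and CDK13, was lower in Pds5a-KO siGLO (-1.03, SE 0.09) and in the dual depletion (-0.97, SE 0.09). Of 10 MYC network partners 2 were called in the dual depletion, a smaller share than the 32% of all tested genes: Mnt, a repressor that competes with MYC for MAX, was higher at 0.45 (SE 0.10) and Mxd3 was lower at -0.53 (SE 0.14).

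The 20 listed E2F target genes, most of which serve DNA replication, had 8 members lower and none higher in Pds5a-KO siGLO against WT siGLO, and 16 lower and none higher in the dual depletion. These are 40% and 80% of the list, where 8.12% and 14.6% of all tested genes were lower. Their median log2 fold change was -0.20 and -0.33 in these comparisons, beside 0.00 and -0.00 over all tested genes. Rrm2, a subunit of ribonucleotide reductase, was at -0.67 (SE 0.07) and -1.34 (SE 0.07), and Mcm5, of the replicative helicase, at -0.54 (SE 0.06) and -0.72 (SE 0.06). In Pds5b-KO siGLO 9 were lower and 1 higher, where 8.57% of all tested genes were lower and 9.64% higher. Gmnn was at -0.59 (SE 0.08) and Cdt1 at 0.30 (SE 0.06) there. Pds5a-KO siStag1 had 12 of the 20 lower and none higher against WT siGLO, and Pds5a-KO siStag2 had 14 lower and none higher. There 9.37% and 13.9% of all tested genes were lower. Against Pds5a-KO siGLO, 3 of the 20 were lower in the dual depletion, where 3.59% of all tested genes were lower. None was called after siStag1 or siStag2 against Pds5a-KO siGLO, where 0.0936% and 2.24% of all tested genes were called.

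The 25 listed MYC target genes, most of which serve ribosome production, had a smaller share of calls than all tested genes in these comparisons, with 2 higher and none lower in each knockout with siGLO, and 1 higher and 4 lower in the dual depletion, with a median of -0.06. Against WT siGLO, Pds5a-KO siStag1 had 4 higher and none lower, 16% of the list beside 20% of all tested genes called. Pds5a-KO siStag2 had 5 lower and none higher against WT siGLO, 20% beside 30.1%. Against Pds5a-KO siGLO, none of the 25 was called after either siRNA, where 0.0936% and 2.24% of all tested genes were called. At an unadjusted p under 0.05 in edgeR, 2 of the 25 passed after siStag1 and 12 after siStag2, beside 1598 and 3783 of 14963 tested genes. Their median log2 fold change was 0.01 and -0.16. For siStag2 against siStag1 none was called and 15 of the 25 passed at that level, beside 2971 of 14963, with a median of -0.18. The 20 G2/M genes had 5 higher and 2 lower in the dual depletion, a share of calls near the 32% of all tested genes. There Cdc20, an activator of the anaphase-promoting complex, was at 0.64 (SE 0.06), and the median log2 fold change of the 20 was 0.07.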

How the data were processed

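Each library was sequenced from poly-A RNA; the authors aligned its reads to mm10 using STAR and deposited raw read counts per gene symbol, which are not normalized. The counting tool, annotation and use of strand are not given in the sources used here. Samples were grouped by their labels. The 10 genes and all gene lists were chosen with earlier results of these data known. The text names the 10 genes, the 4 targeted genes and, per other list and comparison, at most 3 called genes of largest rise and 3 of largest fall, and, for likeness, the genes of highest Pearson correlation over the 7 group means.

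The deposited counts were tested with edgeR 4.0.16 in R 4.3.3: TMM, edgeR's filter on low counts, 1 robust quasi-likelihood model over 21 libraries, and Benjamini-Hochberg adjustment over 14963 genes. A normalized count is the count divided by its TMM-scaled library size and multiplied by the mean of those sizes. The SE is the size of the log2 fold change divided by the square root of F. Levels per kb used exon bases of RefSeq-mapped transcripts. Libraries with the same number deviated together, every correlation being over 0.1, between siGLO and siPds5b in WT mESCs (0.382 to 0.545) and between siGLO and siPds5b (0.37 to 0.727), siStag1 (0.202 to 0.674) and siStag2 (0.116 to 0.269) in Pds5a-KO mESCs. The alternatives were DESeq2 1.42.0, an adjusted p under 0.05, RLE or library-size scaling, no filter, models of only the groups compared, the replicate block and leaving out each library. Plots were drawn with matplotlib 3.10.9.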

Additional observations from a re-analysis of the deposited data

Results flagged for a closer look

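The effect of siPds5b on Ccnd3 differed between genotypes by the test of the difference itself: the interaction was -0.60 on the log2 scale (SE 0.10, adjusted p = 0.000739 in edgeR), with log2 fold changes of -0.40 in WT and -1.002 in Pds5a-KO mESCs. Lower Ccnd3 was seen in 3 of 3 libraries in each genotype. The mean Pds5b count after siPds5b was 776 in WT and 903 in Pds5a-KO mESCs, and the part of the siRNA itself was not tested.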

How the results depend on the processing

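Of the 25 calls among the 10 genes, 17 kept their call under every alternative tried and 8 lost it under at least 1, and no call changed sign. The number of genes called in the interaction went from 1 to 2 at an adjusted p under 0.05, with DESeq2 and with the replicate block, Mycn being added (block adjusted p = 0.00242), and without 1 library it was 1 to 2. For siStag2 against siStag1 it went from 0 to 2 at an adjusted p under 0.05, to 3 with DESeq2, to 1 (Ccnd2) in the model of only those groups and to 3 with the replicate block. For siStag2 against Pds5a-KO siGLO it went from 2 to 1 in the model of only those groups and with RLE scaling, with Ccne1 lost (adjusted p = 0.066 and 0.0102), and without 1 library it was 1 to 2. For WT siPds5b against WT siGLO it went from 0 to 1 at an adjusted p under 0.05 and with DESeq2. Without 1 library the number was 2 to 3 for Pds5a-KO siGLO against Pds5b-KO siGLO, 1 to 2 for siPds5b against siGLO in Pds5a-KO mESCs and 2 to 4 for Pds5a-KO siStag1 against WT siGLO. The cause of these changes was not tested.

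In models of only the groups compared, which hold fewer libraries, the calls of Mycn after siPds5b in Pds5a-KO mESCs (adjusted p = 0.0643), of Ccnd3 between the knockouts (0.0316), of Ccnd2 in Pds5a-KO siStag1 (0.0351) and of Ccne2 in Pds5a-KO siStag2 (0.0144) against WT siGLO were lost, and Ccnd2 after siPds5b in Pds5a-KO mESCs was added (0.00952). Without the filter on low counts, where more genes are tested, Mycn in Pds5b-KO (0.0171), Ccnd2 between the knockouts (0.0107) and Ccne2 in Pds5a-KO siStag2 (0.0102) were lost. In the 4 contrasts whose libraries were paired by replicate number, the block changed no call, and in the interaction, which joins 2 of them, it added Mycn. The block gives each replicate number the same effect in all 7 conditions, so it cannot follow a pairing that differs between genotypes. Whether these calls depend on pairing within a genotype was not tested. Elsewhere libraries share only a number, and the block added Ccnb1 between the knockouts (0.00891), Ccnd2 in the dual depletion (0.00276) and Ccne1 in Pds5a-KO siStag2 (0.00748) against WT siGLO. With 3 libraries per condition and SE near 0.3 for Myc, small differences in Myc were not detectable in the main model. That model holds no pairing by replicate number, and differences of Myc between paired libraries were not tested.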

Other observations

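Over the 7 group means of log2 CPM, the genes most like Ccnd3 among 9763 genes were Dlat (Pearson r = 0.98) and Enoph1 (0.97), those most like Ccnd2 were D630037F22Rik (0.99) and Elp4 (0.99), and those most like Ccnd1 were Churc1 (0.99) and Pnma5 (0.98). The range over the group means was 0.14 log2 units for Dlat, against 1.32 for Ccnd3. These correlations are descriptions over 7 points that share the same libraries. Within the group, the highest correlations over the 7 means were those of Myc with Mycn (0.93), Ccnd2 with Ccna2 (0.91) and Ccnd1 with Ccnb1 (0.89). The lowest was that of Ccne2 with Ccnb1 (-0.64). The group means spanned 0.10 log2 units for Ccna2, 0.26 for Ccnb1 and 0.52 for Myc, and none of these genes was called in any comparison.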
